A study of Drosophila melanogaster with 12 samples.

Results

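Of 16637 transcripts on the array, a group of 118 stood higher in Drosophila cells given RNAi against the chromatin protein CP190 than in control cells. This held before the hormone 20-hydroxyecdysone (20HE) was added and 3 h after it. By 48 h of hormone the difference was under 1.23-fold or turned round. The measurements came from 12 single-colour arrays of Kc cells, an embryonic Drosophila melanogaster line. The 6 groups, of 2 biological replicates each, were CP190 RNAi and control RNAi cells with 0, 3 or 48 h of 20HE exposure. The control RNAi targeted beta-galactosidase, so cells of every group had gone through an RNAi treatment.

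CP190 is recruited to insulators, the DNA elements that separate neighbouring regulatory domains, by DNA-binding factors such as su(Hw), CTCF and BEAF-32. It is also found at many active promoters. The hormone 20HE binds a nuclear receptor made of EcR and usp, switches on early transcription factor genes and through them a later wave of target genes. Kc cells are used as a model of that response.

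The members were chosen from measured values. For each transcript the log2 intensities of both replicates were averaged in each group, and the CP190 RNAi minus control RNAi difference was taken at each hour. A member had a difference of at least 0.6 (1.52-fold) at 0 h and at 3 h and of less than 0.3 (1.23-fold) at 48 h. Its highest group lay more than 1 log2 unit above the array's random-sequence control row. The change from 0 to 3 h, averaged over both RNAi arms, lay between -0.4 and 0.4, and that from 0 to 48 h between -1.5 and 1.5. All 6 group means entered this choice, so the differences and hormone changes below describe the members and carry no test of their own.

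Of 350 transcripts with a difference of at least 0.6 at 0 and 3 h, 263 met the limits on level and hormone change. At 48 h, 82 of these 263 still differed by at least 0.6, 63 by between 0.3 and 0.6, and the 118 members by less than 0.3. The members nearest to the limits had a difference of 0.607 at 0 h, 0.613 at 3 h and 0.295 at 48 h. The nearest transcripts outside, meeting every other limit, had 0.595 at 0 h, 0.599 at 3 h and 0.301 at 48 h. At these 3 limits the values inside and outside were close. At the lower limit of the 48 h change the nearest values were -1.43 inside and -1.63 outside, and for the highest group above the random-sequence row 1.23 inside and 0.98 outside.

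The table identifies transcripts by FlyBase number and does not pair them with genes. A RefSeq gene table listed 44 of the 16637 identifiers, but 0 of the 118 members, so the members have no gene names or functions here. Of 42 genes of insulators, the hormone response and cell type markers that were looked up, 0 were among the identifiers listed for a single gene. The depletion of CP190 RNA and the haemocyte-like identity of the cells were therefore not analysed here. The median intensity of an array was 1136 to 1227, and its random-sequence row read 413 to 425. RNA came from whole cultures, so fewer cells that express a transcript and less of it per cell cannot be told apart.

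Across the 118 members, the median intensity on the CP190 RNAi arrays was 4001 and 3825 at 0 h, 3733 and 3484 at 3 h, and 3083 and 2891 at 48 h. On the control RNAi arrays it was 2099 and 2113 at 0 h, 1978 and 1773 at 3 h, and 2648 and 3177 at 48 h. The arms were thus well apart at the first 2 times and overlapped at 48 h. In these medians the convergence came from both sides, lower in CP190 RNAi cells and higher in control cells than at 0 h. Taken singly, 50 members changed in these opposite directions, while 33 were higher and 35 lower at 48 h in both arms.

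**Figure D1:**
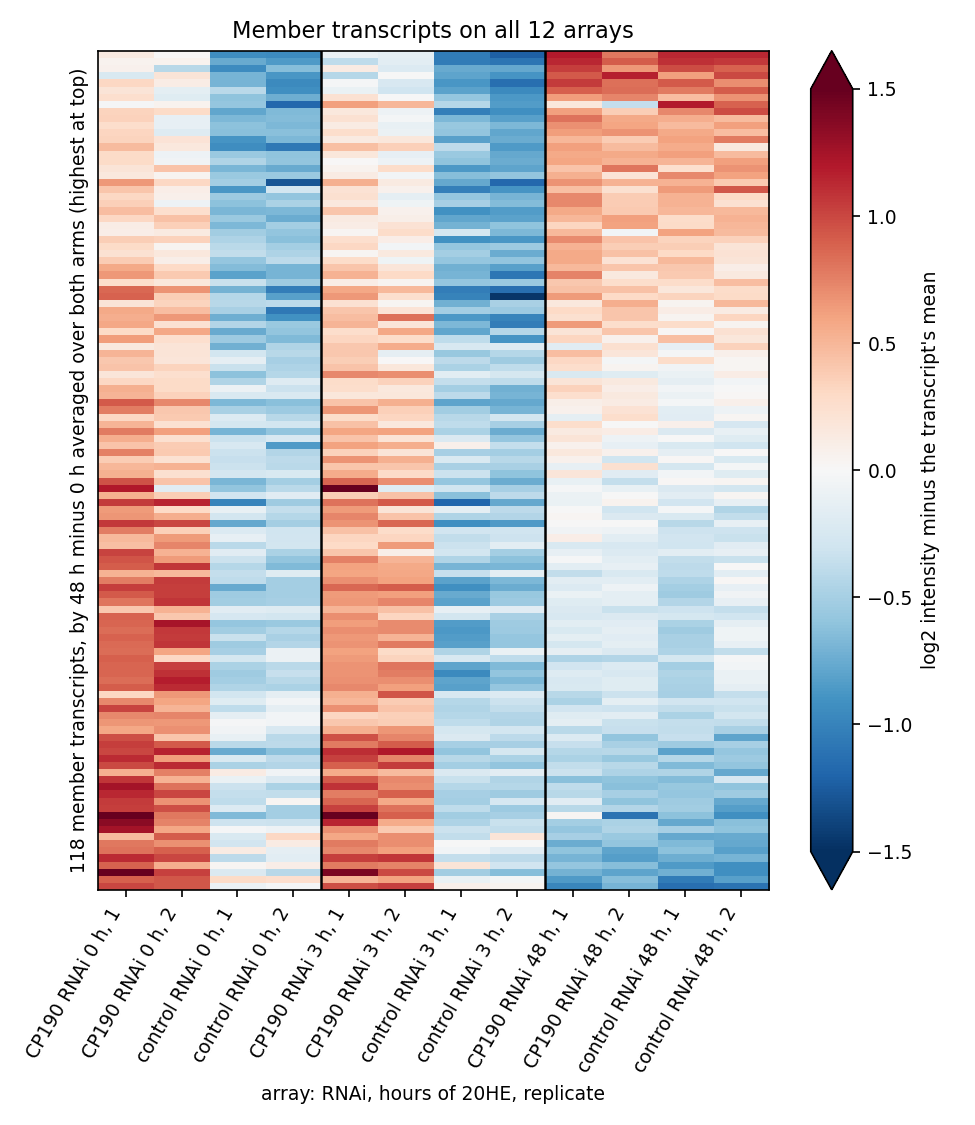
Log2 intensity of each of the 118 members (rows) on each of the 12 arrays (columns), minus the transcript's own mean over the arrays. Red is above and blue below that mean, with the colour scale ending at 1.5. Within 0 h and within 3 h the CP190 RNAi columns are redder than the control RNAi columns, and at 48 h the arms' median intensities overlap. Rows are ordered by the 48 h minus 0 h change averaged over both arms.

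At 0 h the median CP190 RNAi minus control RNAi difference was 0.95 on the log2 scale (1.93-fold), with members between 0.61 and 1.86. At 3 h the median was 0.92 (1.89-fold), with members between 0.61 and 1.84. The median over all transcripts was -0.0094 at 0 h and -0.019 at 3 h. In 44 members the difference was at least 1, or 2-fold, at both hours. The values at 0 and 3 h were close, within 0.3 of each other in 113 members, and 54 members had the larger value at 3 h. The median standard error of such a difference in the limma fit was 0.13.

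Every CP190 RNAi array lay above every control array in all 118 members at 0 h, a separation shown by 22.3% of all transcripts, and in all 118 at 3 h, against 21.6% of all transcripts. Limma, with Benjamini-Hochberg adjustment over all 16637 transcripts and a threshold of 0.05, called 115 members higher at 0 h and 113 at 3 h. Over all transcripts 4.45% were called higher at 0 h and 4.33% at 3 h. Limma called 0 members lower at 0 h (2.89% of all transcripts) and 0 at 3 h (1.88%), with 0 at an unadjusted p under 0.05 at either hour. The CP190 RNAi arrays lay below the control arrays in 0 members, against 23.9% of all transcripts at 0 h and 26.1% at 3 h. The rule selected on these same differences, so nothing is read from these counts.

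At 48 h the median difference was 0.12 (1.09-fold), with members between -1.13 and 0.30. Of the 118, 93 had values above 0 and 25 below 0, and 41 lay within 0.1 of 0. Limma called 0 members higher (3.17% of all transcripts), with 11 at an unadjusted p under 0.05 (8.49% of all transcripts), and 1 lower (2.02% of all transcripts). The member called lower was FBtr0081556, a call lost without control 48 h replicate 1 or CP190 48 h replicate 2. With the replicate number as a block, 1 member was called higher. Without CP190 48 h replicate 1 the count called higher was also 1. In 39 members both CP190 RNAi arrays still lay above both control arrays at 48 h, against 22.8% of all transcripts, and in 8 both lay below, against 24.3%. The upper limit of 0.3 permits such small remaining differences.

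**Figure D2:**
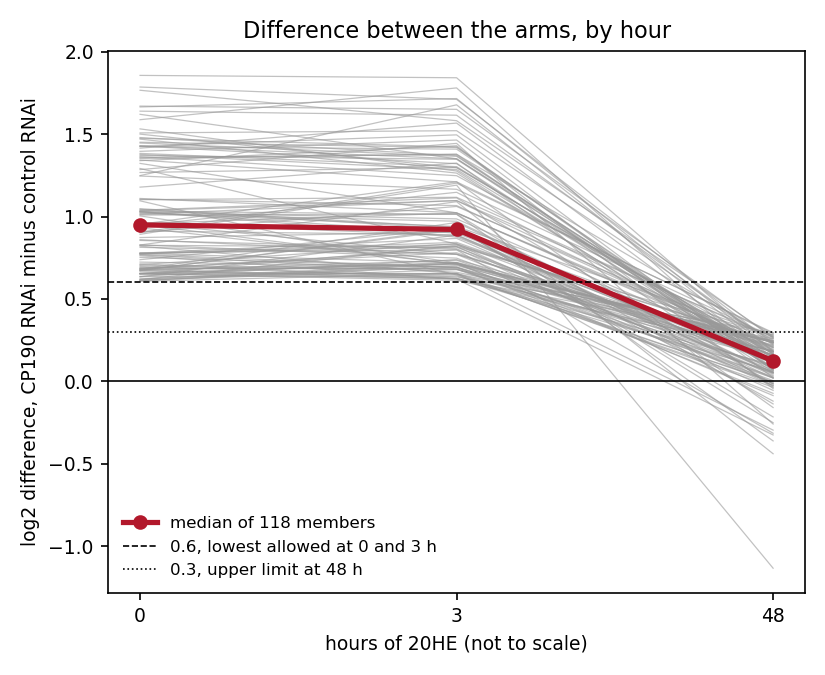
Log2 difference, CP190 RNAi minus control RNAi (vertical axis), for each of the 118 members (grey lines) at 0, 3 and 48 h of 20HE (horizontal axis, not to scale). The red line joins the medians of 0.95, 0.92 and 0.12. The dashed and dotted lines are the limits of 0.6 and 0.3 used to choose the members, and the single line that ends far below the others is FBtr0081556.

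Both replicate numbers showed the early difference, but the rule averaged these same replicates, so this is a description. Replicate number 1 had a median of 1.03 at 0 h and 0.94 at 3 h, and replicate number 2 had 0.91 and 0.90. All 118 members were above 0 in both numbers at 0 h and at 3 h. A difference of at least 0.6 was reached in both numbers by 88 members at 0 h and by 94 at 3 h. At 48 h replicate number 1 had a median of 0.18 and number 2 of 0.073. The difference was below 0.3 in both numbers for 89 members, and in 36 the 2 numbers had opposite signs. At 0 and 3 h the signs were opposite in 0 members.

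The order of the 6 groups was uneven among members. The highest group was CP190 RNAi at 0 h in 65 members, at 3 h in 19 and at 48 h in 22, and control RNAi at 48 h in 12. The lowest group was control RNAi at 3 h in 74 members, at 48 h in 24 and at 0 h in 15, and CP190 RNAi at 48 h in 5. No member had its highest group in control cells at 0 or 3 h, as the rule requires.

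Levels ranged widely. Group means in CP190 RNAi cells at 0 h ran from 819 to 38164, with a median of 3917, and in control cells at 0 h from 444 to 23923, with a median of 2041. In 105 members no group lay within 1.5-fold of the random-sequence row, that is below an intensity of 626. Near that level, background makes folds too small. Control cells were that low in 8 members at 0 h, 10 at 3 h and 11 at 48 h. In 10 members both arms were that low at 48 h, where a remaining difference would be hard to detect.

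In CP190 RNAi cells the 48 h minus 0 h change had a median of -0.53, with members between -2.02 and 1.07, against a median of -0.035 over all transcripts. Limma called 64 members lower (13.9% of all transcripts) and 13 higher (12.6% of all transcripts) than at 0 h. In control cells the median change was 0.25, with members between -1.19 and 2.06, against -0.037 over all transcripts. There 50 members were called higher (13.1% of all transcripts) and 13 lower (15.3% of all transcripts). In CP190 RNAi cells the count called higher was 8 with CP190 48 h replicate 1 left out and 6 with CP190 0 h replicate 2 left out. In control cells the count called lower was 8 without control 48 h replicate 2.

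In 44 members CP190 RNAi cells were called lower at 48 h with no call in control cells, against 3.84% of all transcripts. In 30 there was no call in CP190 RNAi cells and control cells were called higher, against 3.59%. Another 7 members were called lower in CP190 RNAi cells and higher in control cells, against 0.0902%. Both arms were called higher in 13 members (9.38% of all transcripts) and lower in 13 (9.98%), and 11 had no call in either arm (64.6%). The rule fixes much of this, so nothing is read from these shares. The 0 h arrays enter both these changes and the 0 h difference by which the members were chosen.

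The difference of the 48 h responses, CP190 RNAi minus control RNAi, was negative in all 118 members, as the rule requires. Its median was -0.86, with members between -2.03 and -0.36. Limma called 66 members below 0 (1.36% of all transcripts) and 0 above 0 (0.823%), with 110 and 0 at an unadjusted p under 0.05, against 5.33% and 5.11% of all transcripts. The value was -1 or below in 46 members. The count of 66 became 43 without CP190 0 h replicate 1 and 42 without control 48 h replicate 2. With the replicate number as a block it was higher, as given with the processing checks below.

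**Figure D3:**
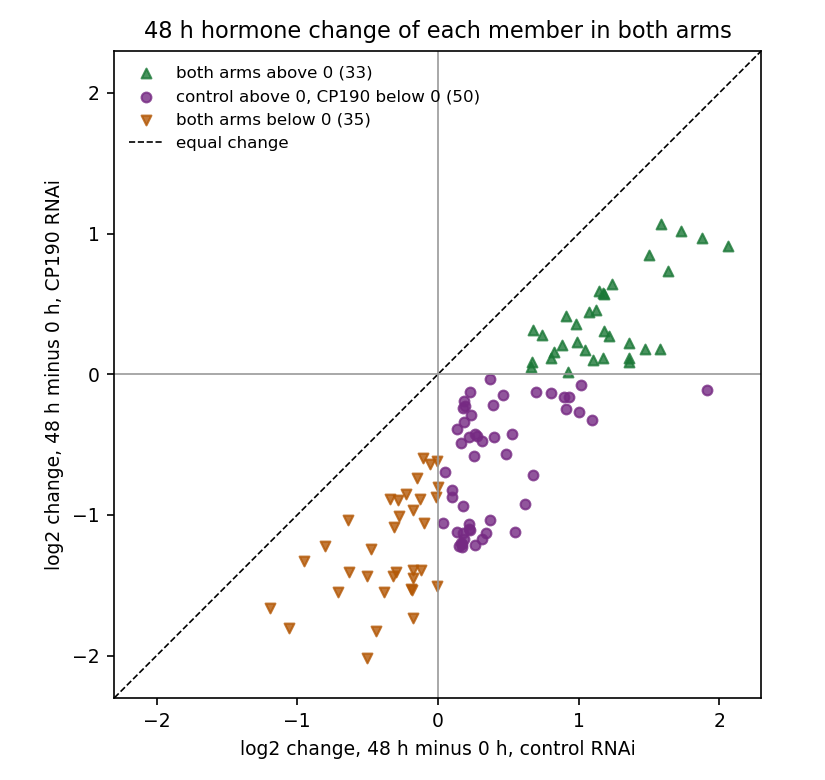
Log2 change from 0 to 48 h of 20HE in CP190 RNAi cells (vertical axis) against the same change in control RNAi cells (horizontal axis), 1 point per member. All points lie below the dashed line of equal change, which the choice of members fixes. The 3 colours and markers separate 33 members above 0 in both arms, 50 above 0 in control and below 0 in CP190 RNAi cells, and 35 below 0 in both.

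By the signs of these changes the members fell into 3 classes. In 50 members the level was lower at 48 h than at 0 h in CP190 RNAi cells and higher in control cells. In 33 it was higher at 48 h in both arms, by a median of 0.28 in CP190 RNAi cells and 1.17 in control cells. In 35 it was lower in both arms, by a median log2 change of -1.33 in CP190 RNAi cells and -0.27 in control cells. So the gap closed by a larger upward change in control cells in the 33, and by a larger downward change in CP190 RNAi cells in the 35. Given the signs, the rule fixes this. CP190 RNAi cells moved further than control cells in 71 members and less far in 47.

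The 50 members with opposite changes had the largest median early difference, 1.11 at 0 h, against 0.95 in the 35 and 0.77 in the 33. Without the 10 transcripts FBtr0085137 to FBtr0085146, whose identifiers are consecutive, the other 40 had a median of 0.96, close to that of the 35. The 40 still hold FBtr0112834, FBtr0114372 and FBtr0113385, whose values resembled those of the 10, as described below. Over all 50 the median change by 48 h was -0.48 in CP190 RNAi cells and 0.26 in control cells. Over the other 40 it was -0.43 and 0.31. FBtr0084927 had the largest mean difference at 0 and 3 h of all members. Its intensities in CP190 RNAi cells were 5281 and 5661 at 0 h, 4499 and 4821 at 3 h, and 2388 and 2645 at 48 h. In control cells they were 1290 and 1766 at 0 h, 1121 and 1504 at 3 h, and 2088 and 2346 at 48 h. The arms were far apart at 0 and 3 h and did not overlap at 48 h, although they came close. The differences were 1.86 ± 0.16 at 0 h (3.62-fold), 1.84 ± 0.16 at 3 h (3.59-fold) and 0.18 ± 0.16 at 48 h (1.14-fold; SE, n = 2 arrays a group).

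FBtr0081556 had the lowest difference at 48 h, where the order of the arms was turned round. CP190 RNAi cells had 2747 and 2878 at 0 h, 4257 and 3920 at 3 h, and 3134 and 2163 at 48 h. Control cells had 1862 and 1233 at 0 h, 2063 and 1553 at 3 h, and 6338 and 5152 at 48 h. The arms did not overlap at any hour, with CP190 RNAi cells on top at 0 and 3 h and control cells on top at 48 h. The differences were 0.89 ± 0.21 at 0 h, 1.19 ± 0.21 at 3 h and -1.13 ± 0.21 at 48 h. The 48 h minus 0 h change was 1.92 ± 0.21 in control cells, against -0.11 ± 0.21 in CP190 RNAi cells. In between, CP190 RNAi cells were higher at 3 h than at 0 h by 0.54 ± 0.21, a change limma did not call. At 48 h they were lower again.

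**Figure D4:**
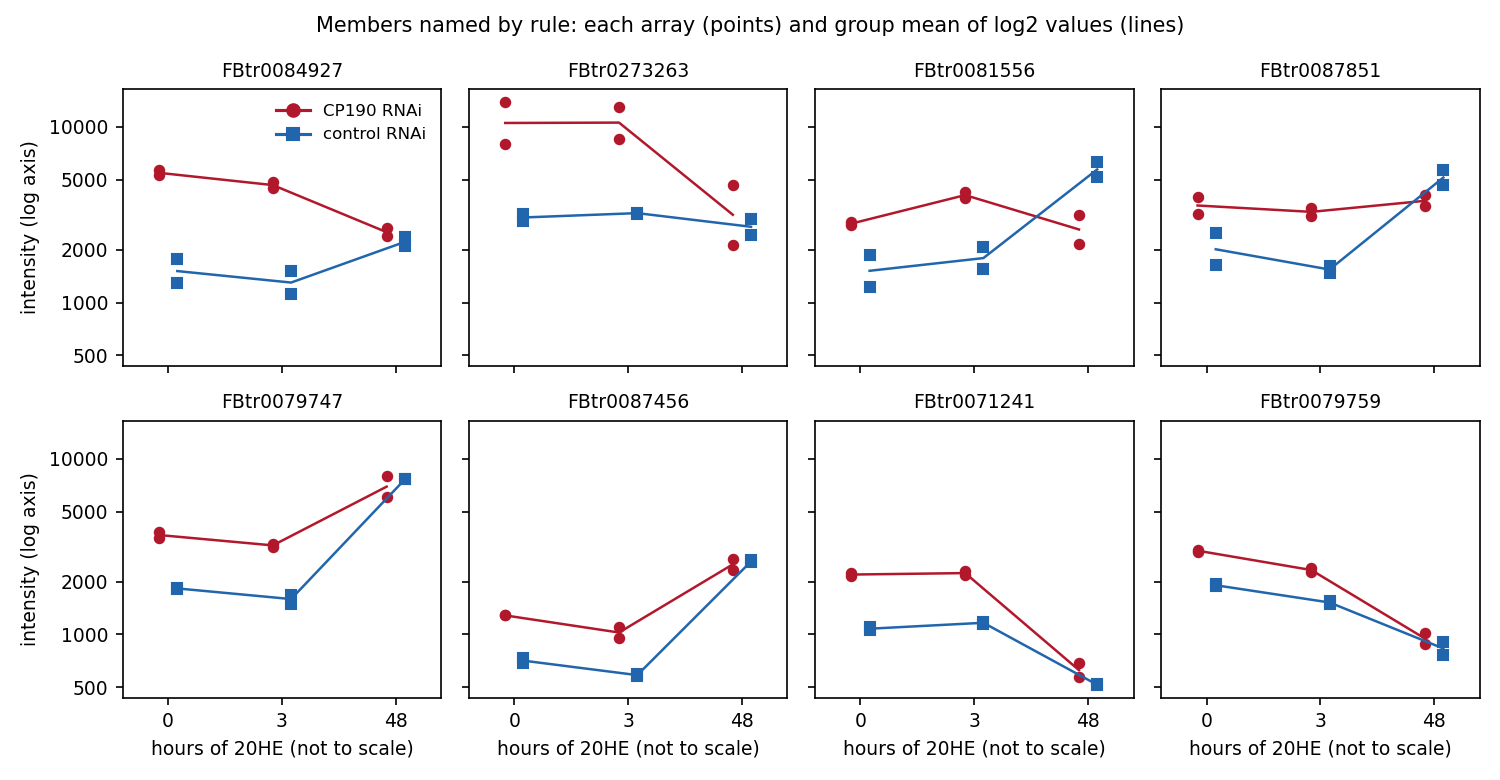
Intensity (log axis) of 8 members at 0, 3 and 48 h of 20HE (not to scale). Points are single arrays, circles for CP190 RNAi and squares for control RNAi, and lines join the group means of log2 values. The gap of FBtr0273263 closes through lower CP190 RNAi values and, from 0 to 48 h, that of FBtr0081556 reverses mainly through higher control values. FBtr0079747 and FBtr0087456 are higher in both arms at 48 h, and FBtr0071241 and FBtr0079759 are lower in both.

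Among the 33 members with higher levels at 48 h in both arms, FBtr0079747 had the highest mean change, 1.49. Its intensities in CP190 RNAi cells were 3849 and 3515 at 0 h, 3271 and 3153 at 3 h, and 7951 and 6049 at 48 h. In control cells they were 1834 and 1821 at 0 h, 1687 and 1499 at 3 h, and 7620 and 7634 at 48 h. At 48 h both control values lay between the CP190 RNAi values, so the arms overlapped. The 48 h minus 0 h change was 0.92 ± 0.12 in CP190 RNAi cells and 2.06 ± 0.12 in control cells.

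FBtr0087456 followed the same course at a lower level. CP190 RNAi cells had 1284 and 1282 at 0 h, 953 and 1104 at 3 h, and 2703 and 2322 at 48 h. Control cells had 732 and 687 at 0 h, 595 and 579 at 3 h, and 2637 and 2569 at 48 h. The arms were separate until 48 h, when they overlapped, and the control values at 3 h were near background. The change by 48 h was 0.97 ± 0.097 in CP190 RNAi cells and 1.88 ± 0.097 in control cells.

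FBtr0087851 had the second lowest difference at 48 h, -0.44 ± 0.18. In CP190 RNAi cells its level hardly moved, with 3980 and 3192 at 0 h, 3453 and 3114 at 3 h, and 4080 and 3521 at 48 h. In control cells it had 1631 and 2473 at 0 h, 1469 and 1615 at 3 h, and 4658 and 5673 at 48 h. Control arrays lay below the CP190 RNAi arrays at 0 and 3 h and above them at 48 h. Its early difference of 0.83 ± 0.18 at 0 h was uneven, 1.29 in replicate number 1 and 0.37 in number 2.

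Among the 35 members with lower levels at 48 h in both arms, FBtr0071241 and FBtr0079759 had the lowest mean changes, both -1.43. FBtr0071241 had 2241 and 2143 in CP190 RNAi cells at 0 h, 2187 and 2282 at 3 h, and 569 and 690 at 48 h. In control cells it had 1056 and 1101 at 0 h, 1180 and 1150 at 3 h, and 514 and 521 at 48 h. The arms did not overlap at any hour, but at 48 h control cells were near background, which shrinks the remaining difference of 0.28 ± 0.093.

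FBtr0079759 had no group within 1.5-fold of the random-sequence row. It had 2958 and 3036 in CP190 RNAi cells at 0 h, 2252 and 2401 at 3 h, and 879 and 1019 at 48 h. In control cells it had 1930 and 1881 at 0 h, 1486 and 1555 at 3 h, and 766 and 905 at 48 h. The arms overlapped at 48 h alone, where the difference was 0.19 ± 0.10. Its change by 48 h was -1.66 ± 0.10 in CP190 RNAi cells and -1.19 ± 0.10 in control cells.

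FBtr0273263, also among the 35, had the second largest mean early difference, and its replicates were uneven. CP190 RNAi cells had 13905 and 7939 at 0 h, 13018 and 8564 at 3 h, and 4687 and 2127 at 48 h. Control cells had 2894 and 3208 at 0 h, 3202 and 3249 at 3 h, and 3002 and 2423 at 48 h. Control cells kept nearly the same level throughout, and the CP190 RNAi arrays came down to span it at 48 h. The differences were 1.79 ± 0.33 at 0 h, 1.71 ± 0.33 at 3 h and 0.23 ± 0.33 at 48 h, the last being 0.64 in replicate number 1 and -0.19 in number 2.

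Some members may not be independent measurements. By identifier number, 34 of the 118 sat in 12 runs of consecutive numbers and 84 stood alone, which leaves 96 runs and single identifiers. The longest run, picked out after its values were seen, held the 10 transcripts FBtr0085137 to FBtr0085146. Their median intensity on the CP190 RNAi arrays was 10107 and 11722 at 0 h, 8934 and 9559 at 3 h, and 4730 and 4966 at 48 h. On the control arrays it was 3979 and 4114 at 0 h, 3208 and 3574 at 3 h, and 4044 and 5328 at 48 h. The CP190 RNAi medians thus lay above the control medians at 0 and 3 h and between them at 48 h. Their difference lay between 1.38 and 1.62 at 0 h, upward of 1.28 at 3 h with a median of 1.39, and between 0.022 and 0.17 at 48 h. Across the 12 arrays their log2 values correlated pairwise by 0.974 to 0.998, a description over shared arrays. Outside the run, FBtr0112834, FBtr0114372 and FBtr0113385, named after their values were seen, had a median correlation with it of at least 0.98. Likeness of this degree was thus also seen outside consecutive numbers. Whether these transcripts are of the same gene as the run was not tested. Transcripts of the same gene on this array may share probes, and the table does not say which do.

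In this run the change by 48 h lay between -1.23 and -1.10 in CP190 RNAi cells and between 0.14 and 0.34 in control cells, so the 10 belong to the class of 50. At 48 h the difference was above 0 in replicate number 1, between 0.22 and 0.43, and below 0 in number 2, between -0.17 and -0.021. With each run averaged to 1 value, the median over 96 values was 0.92 at 0 h, 0.89 at 3 h and 0.13 at 48 h. The median change by 48 h was then -0.46 in CP190 RNAi cells and 0.25 in control cells, close to the values over all 118 members. The 3 members outside the longest run that resembled it still entered apart from it.

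In 124 transcripts the identifier was next in number to a member without being a member itself. Of these, 8, or 6.45%, differed by at least 0.6 at 0 and 3 h, against 2.10% of all transcripts, which include the members. The median difference of these neighbours was 0.073 at 0 h, 0.059 at 3 h and -0.0022 at 48 h. Identifier number is not a map position, so distances between members on the chromosomes were not analysed here.

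At 3 h of hormone the members had moved little, within limits that the rule set on the mean of both arms. The median change was -0.13 in CP190 RNAi cells and -0.12 in control cells, against -0.006 and -0.003 over all transcripts. Most of the small changes were downward, in 93 members in CP190 RNAi cells and 96 in control cells. Over all 16637 transcripts 8679 and 8531 were below 0. The 82 transcripts that still differed at 48 h leaned the same way, with 62 and 64 below 0. Limma called 1 member higher in CP190 RNAi cells (0.613% of all transcripts) and 0 lower (0.0902%), with 3 higher and 21 lower at an unadjusted p under 0.05, against 2.69% and 2.46% of all transcripts. In control cells it called 0 higher (0.956%) and 1 lower (0.355%), with 4 and 11 at an unadjusted p under 0.05, against 3.17% and 3.01%. The first was FBtr0083159, with a change of 0.49 ± 0.096, and the second FBtr0100393, with -0.38 ± 0.081, both named after their values were seen. Each call was lost without most single arrays of the fit. With the replicate block, 4 members were called lower in CP190 RNAi cells and 5 in control cells. Of the difference of the 3 h responses limma called 0 members, with 0 at an unadjusted p under 0.05, and 0% of all transcripts.

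The 82 transcripts whose difference persisted at 48 h began from similar differences, with a median of 1.03 at 0 h and at 3 h, and kept a median of 0.91 at 48 h. Their median 48 h minus 0 h change was -0.16 in CP190 RNAi cells and -0.12 in control cells, so the arms' medians moved alike, where those of the members had opposite signs. Averaged over both arms, the change had nearly the same median in both sets, -0.12 in the members and -0.13 in the 82. Limma called the difference of the 48 h responses negative in 66 members and 5 of the 82 (1.36% of all transcripts). It called 0 members and 3 of the 82 positive (0.823% of all transcripts). The split at 48 h fixes that contrast, so it is a description. In control cells at 0 h the median intensity was 2041 in the members and 1455 in the 82. In the change of each arm the 63 transcripts between the limits lay between the sets, with medians of -0.21 in CP190 RNAi cells and 0.21 in control cells. Their median difference was 0.81 at 0 h and 0.83 at 3 h, below both sets. Averaged over both arms, their median change was 0.020, above both sets.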

How the data were processed

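The deposited table holds a linear intensity for each transcript on each of 12 arrays. The authors used RMA, according to the submitters' processing notes. Its version, the transcript annotation and the build were not given in the sources used here. RMA usually equalises the arrays' distributions, which can hide a shift shared by most transcripts. Per the labels' design text, 8 probes measured each gene. The extraction protocol also names Mbn2 cells, while all titles name Kc cells.

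The log2 of each intensity was taken with no pseudocount or filter. The random-sequence row was left out of tests. Linear models of 6 group means over 12 arrays, with 6 residual degrees of freedom, were fitted to 16637 transcripts with limma 3.58.1 in R 4.3.3 (lmFit, eBayes). P-values were two-sided and Benjamini-Hochberg adjusted over all transcripts, separately for each comparison, at a threshold of 0.05. The fit was tested on simulated data. Precision is limited by having only 12 arrays.

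The labels number the replicates 1 and 2 in every group. Differences between replicates 1 and 2 correlated by 0.147 to 0.608 across 15 pairs of groups, all above 0.1, so the numbers were taken to pair the samples. The main fit, behind the counts and standard errors given unless a block is named, left this pairing out. Fits with the replicate block are given where they moved a count by over 1.5-fold, and for the difference of the 48 h responses.

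The members and lists were chosen with earlier results of these data known. Because the members have no gene names, the rule named at most 2 members in each direction. These were the 2 with the highest mean difference at 0 and 3 h, the 2 lowest differences at 48 h, the 2 highest and 2 lowest mean 48 h changes and the 2 most negative differences of 48 h responses. FBtr0084927 and FBtr0081556 were each named by 2 parts of this rule. The other identifiers printed were chosen after their values were seen. Alternatives were array centring, quantile normalisation, a trended robust prior, only the arrays compared, a filter on near-background transcripts, and leaving out each array. No sequences or coordinates were used here.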

Additional observations from a re-analysis of the deposited data

Results flagged for a closer look

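The 48 h response to 20HE differed between the RNAi arms in 66 of the 118 members. This was by limma's test of the difference, Benjamini-Hochberg adjusted over all transcripts. Of all transcripts 1.36% were called below 0 and 0.823% above 0. Among the 8 members named by rule the response differed in 6, and 2 of these were named by that difference. The log2 difference of the responses, CP190 RNAi minus control RNAi, was -2.03 for FBtr0081556, -1.67 for FBtr0084927, -1.27 for FBtr0087851, -1.15 for FBtr0079747, -0.91 for FBtr0087456 and -0.75 for FBtr0071241. The members were chosen for a difference that is lost at 48 h, so these values restate the choice and are no independent evidence.

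Leaving out single arrays ended the call of FBtr0087851 in 4 cases, giving differences between -0.97 and -1.16, and that of FBtr0071241 in 2 cases, giving -0.72 and -0.74. With the replicate block FBtr0273263 (-1.56) and FBtr0079759 (-0.47) were also past the threshold.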

How the results depend on the processing

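The rule met 118 transcripts as deposited, 105 after centring each array (102 of them shared with the 118), 116 after quantile normalisation (111 shared) and between 99 and 134 without single arrays (91 to 112 shared). With replicate number 1 alone it met 133 and with number 2 alone 107. These lists shared 51, or 38.3% of the first and 47.7% of the second, so membership is far less stable than its count. Under centring, quantile normalisation and each array left out, the counts of the 3 sign classes stayed within 1.5-fold of 33, 50 and 35. The replicate block cannot alter a log2 change here, and a 3 h array does not enter the 48 h minus 0 h change. Those settings are therefore no check of the classes. These class checks were chosen after seeing the data.

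Leaving out single arrays gave ranges of 84 to 116 members called higher at 0 h, 78 to 115 at 3 h, and 0 to 1 higher and 0 to 1 lower at 48 h. For 48 h against 0 h they were 6 to 15 higher and 60 to 66 lower in CP190 RNAi cells, and 43 to 51 higher and 8 to 13 lower in control cells. For the difference of the 48 h responses the range was 42 to 63, and with the replicate block 97. At 3 h against 0 h it was 0 to 1 in each direction called. The single 3 h call in CP190 RNAi cells became 0 with a trended robust prior or only the arrays compared. That in control cells became 0 with these 2 and with centring and quantile normalisation. The replicate block gave 4 and 5 lower at 3 h, and 1 higher at 48 h. It changed no other count by over 1.5-fold.

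The median difference at 3 h was 0.88 after centring and 0.89 to 0.96 without single arrays. Without single arrays it was 0.86 to 1.02 at 0 h and 0.087 to 0.13 at 48 h, and the change by 48 h was -0.64 to -0.44 in CP190 RNAi cells and 0.21 to 0.38 in control cells. Signal over background limits the members other than the 105 with no group near the random-sequence row. No value was called in the opposite direction under any alternative run. The rule largely fixes this for the differences at 0 and 3 h and for the difference of the 48 h responses. The cause of these shifts was not tested.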
